A study of Mus musculus with 14 samples.

Results

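The genes described here are the acute-phase genes *Saa1*, *Saa2*, *Saa3*, *Saa4*, *Orm1*, *Orm2*, *Orm3*, *Lcn2*, *Hp* and *Hpx*, taken by their gene names from the table of raw read counts. They are 10 of its 55487 genes, and all 10 were among the 12653 genes with enough reads to be tested. Bulk RNA sequencing was carried out on the right liver lobe of 14 male TALLYHO/JnG mice aged 8–12 weeks, a polygenic mouse model of type 2 diabetes with hyperglycaemia and insulin resistance. Vehicle (water) was given to 7 mice (G1, G4, G6, G9, G10, G11 and G13) and indole, a tryptophan metabolite of gut bacteria, at 20 mg/kg to the other 7 (G2, G3, G5, G7, G8, G12 and G14). Both were given by oral gavage in 2 doses per day for 7 days, followed by 2 more doses between the metabolic tests. By the study's protocol, tissue was collected the day after the last metabolic test, a test of glucose or insulin tolerance. Between 15197498 and 21060376 reads were counted on genes in each mouse, and the 10 genes together took between 0.535% and 1.59% of them.

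The acute-phase response is the change in the proteins that hepatocytes secrete into blood during infection, injury or inflammation. Interleukin-6 acts through JAK kinases and STAT3, interleukin-1 acts through NF-κB, and factors of the C/EBP family take part in switching on the target genes. *Saa1* and *Saa2* encode the serum amyloid A proteins that circulate on HDL and are among the most inducible liver products, *Saa3* encodes a form that is also made outside hepatocytes, including in macrophages and adipose tissue, and *Saa4* encodes the constitutive form. *Orm1*, *Orm2* and *Orm3* encode orosomucoids (α1-acid glycoproteins), plasma carriers of small molecules. *Lcn2* encodes lipocalin 2, which withholds iron from bacteria by binding their siderophores. *Hp* encodes haptoglobin, which captures free haemoglobin, and *Hpx* encodes haemopexin, which captures free haem.

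The members lie partly in clusters of related copies, in the coordinates of the deposited table (GRCm38). *Saa1* (chr7:46740497-46742980, minus strand), *Saa2* (chr7:46751790-46754313, plus strand), *Saa3* (chr7:46711998-46715700, minus strand) and *Saa4* (chr7:46727998-46732603, minus strand) are neighbours, and *Orm1* (chr4:63344560-63348163), *Orm3* (chr4:63356162-63359511) and *Orm2* (chr4:63362449-63365878) follow each other on the plus strand. *Lcn2* (chr2:32384633-32388252), *Hp* (chr8:109575128-109579172) and *Hpx* (chr7:105591613-105600137) stand alone, all on the minus strand. No other gene of the table overlapped any of them. The *Saa1* and *Saa2* transcripts were 94.4% identical over 606 aligned bases, and the *Orm1* and *Orm2* transcripts were 91.0% identical over 775. Because only uniquely mapped reads were kept, reads of such copies can be lost. No window of 100 bases was the same in *Saa1* and *Saa2*, whereas 47 of the 676 windows of *Orm1* were also found in *Orm2*.

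*Saa1* and *Saa2*, whose levels followed each other most closely in these livers, also had nearly the same upstream sequence, and both are shown beside that of *Saa4*, which varied little. *Orm2* and *Orm3* are shown as a pair with similar upstream sequences whose levels followed each other less closely (*r*=0.66 over the 14 mice, against 0.996 for *Saa1* and *Saa2*). RefSeq start regions (GRCm38.p6, from 250 bases before to 50 bases after the start) were found for 8 of the 10 genes, all except *Orm1* and *Hp*. The 250 bases before the start were 95.6% identical between *Saa1* and *Saa2*, 89.0% between *Orm2* and *Orm3*, and 62.9% between *Saa1* and *Saa4*. The 200 bases printed end 50 bases short of the start and are read 5′ to 3′ on the gene's own strand, at chr7:46743031-46743230 (minus) for *Saa1*, chr7:46751583-46751782 (plus) for *Saa2*, chr7:46732654-46732853 (minus) for *Saa4*, chr4:63362199-63362398 (plus) for *Orm2* and chr4:63355908-63356107 (plus) for *Orm3*. Capitals mark matches to the C/EBP letters TTGCNNAA on either strand.
*Saa1* promoter: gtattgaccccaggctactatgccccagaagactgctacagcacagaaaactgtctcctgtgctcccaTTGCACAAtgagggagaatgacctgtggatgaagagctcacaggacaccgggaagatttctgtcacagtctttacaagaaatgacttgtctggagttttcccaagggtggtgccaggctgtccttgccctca
*Saa2* promoter: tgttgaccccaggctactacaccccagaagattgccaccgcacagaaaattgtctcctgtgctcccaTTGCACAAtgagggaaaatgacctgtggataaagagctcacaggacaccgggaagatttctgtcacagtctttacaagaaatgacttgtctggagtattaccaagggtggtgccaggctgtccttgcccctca
*Saa4* promoter: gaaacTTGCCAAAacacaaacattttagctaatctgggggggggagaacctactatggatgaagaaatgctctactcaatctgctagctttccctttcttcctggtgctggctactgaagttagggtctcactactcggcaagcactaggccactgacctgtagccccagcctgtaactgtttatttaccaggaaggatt
*Orm2* promoter: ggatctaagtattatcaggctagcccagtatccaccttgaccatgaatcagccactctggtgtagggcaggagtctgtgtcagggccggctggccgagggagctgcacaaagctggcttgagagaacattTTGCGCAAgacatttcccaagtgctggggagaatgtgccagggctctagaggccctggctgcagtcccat
*Orm3* promoter: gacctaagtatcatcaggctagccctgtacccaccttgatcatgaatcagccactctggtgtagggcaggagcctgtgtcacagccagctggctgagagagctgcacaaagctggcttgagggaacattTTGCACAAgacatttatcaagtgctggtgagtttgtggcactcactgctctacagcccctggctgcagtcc

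The C/EBP letters were present in all 8 start regions (*Saa1*, *Saa2*, *Saa3*, *Saa4*, *Orm2*, *Orm3*, *Lcn2* and *Hpx*), compared with 10.8% of the 32851 start regions in the reference. The 8 are not independent, since those of *Saa1* and *Saa2* (95.6% identical) and of *Orm2* and *Orm3* (89.0%) are similar copies. For *Lcn2*, the bases with the match (chr2:32387790-32387989) overlapped an exon and lay inside the gene as deposited, not upstream of it. *Saa1*, *Saa2* and *Orm3* carried the same 8 letters, TTGCACAA. The letters GGACTTTCC (NF-κB, in 0.344% of all start regions) and TTCNNNGAA (STAT, in 8.30%) were in none of the 8. CTGGGAA, a core of the type II acute-phase element, was found in *Orm3* alone (11.1% of all start regions), and TATAAA in *Orm2* and *Orm3* alone (13.6%). Both strands were searched, matches of different motifs were allowed to overlap, and a match of letters does not show that a factor bound there. Only the letters given were searched, so their absence does not show that a region lacks a site for the factor.

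Levels are given as CPM, reads per library scaled to a common library size, after TMM normalisation, which also corrects for composition. *Saa1*, an HDL-bound protein of the inducible class, had lowest, median and highest levels of 23.3, 87.2 and 2050 CPM with vehicle and of 15.9, 44.6 and 106 CPM with indole. The mean was 403±744 CPM with vehicle and 57.1±33.1 CPM with indole (mean±SD, *n*=7 each). Vehicle mice G11 (2050 CPM), G13 (480 CPM) and G4 (109 CPM) were above every indole mouse, and the other 4 vehicle mice lay inside the range of the indole group, so the groups overlapped. *Saa1* in G11 was 50.8-fold, and in G13 11.9-fold, the median of the other 5 vehicle mice.

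*Saa2* repeated this order at a lower level. Its lowest, median and highest levels were 13.01, 48.2 and 1334 CPM with vehicle and 6.73, 24.1 and 58.4 CPM with indole. The mean was 249±486 CPM with vehicle and 29.3±18.2 CPM with indole. G11, G13 and G4 were again above all indole mice, and *Saa2* in G11 was 52.4-fold the median of the same 5 vehicle mice.

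*Saa3* was the least abundant serum amyloid A gene here, with 35 to 461 reads per mouse. Its lowest, median and highest levels were 1.80, 4.61 and 25.5 CPM with vehicle and 2.73, 4.06 and 19.9 CPM with indole. One mouse stood above its group on each side, vehicle G11 (25.5 CPM) and indole G8 (19.9 CPM). G13, which had the second highest *Saa1*, had the lowest *Saa3* of all 14 mice, at 1.80 CPM.

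*Saa4*, the constitutive form, spanned a narrow band. It lay between 153 and 202 CPM with vehicle (median 186) and between 156 and 221 CPM with indole (median 166). G11 was unremarkable for this gene at 186 CPM, and the highest level was that of indole mouse G2, which had the lowest *Saa1* of all.

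Of the orosomucoid genes, *Orm1* made up 92.7% to 97.9% of the reads on the 3 copies. Its lowest, median and highest levels were 836, 940 and 1545 CPM with vehicle and 921, 1027 and 1248 CPM with indole. *Orm2* ran from 28.4 to 101.6 CPM with vehicle (median 32.1) and from 17.8 to 45.5 CPM with indole (median 28.7), and *Orm3* from 5.78 to 19.5 CPM (median 10.5) and from 2.78 to 16.0 CPM (median 7.98). G11 was the highest mouse for all 3 genes. Of the 3, *Orm2* stood out furthest in that mouse, at 3.23-fold the median of the 5 vehicle mice other than G11 and G13, compared with 1.68-fold for *Orm1* and 1.86-fold for *Orm3*. *Orm2* accordingly took 6.10% of the orosomucoid reads in G11 (95% CI 5.83% to 6.37%, Wilson, counting error only), above the median of 3.18% over the 14 mice.

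*Lcn2*, with 64 to 3705 reads per mouse, had lowest, median and highest levels of 7.80, 20.9 and 205 CPM with vehicle and 3.36, 12.1 and 45.3 CPM with indole. Its mean was 46.4±71.1 CPM with vehicle and 15.6±13.7 CPM with indole (*n*=7 each). Here 6 of 7 indole mice were below the vehicle median, but G8 (45.3 CPM) reached the level of vehicle mouse G13 (45.5 CPM) and the groups overlapped.

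The haemoglobin and haem carriers were abundant in every mouse. *Hp* had lowest, median and highest levels of 1253, 1367 and 3951 CPM with vehicle and 1229, 1559 and 2880 CPM with indole. *Hpx* had 3000, 3557 and 6670 CPM with vehicle and 2470, 3240 and 7662 CPM with indole. G11 and G8 were the pair of mice with the highest levels of both genes, G11 leading for *Hp* and G8 for *Hpx*. *Hp* in G13 (2412 CPM) came after these, and no other mouse exceeded 1872 CPM.

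**Figure D1:**
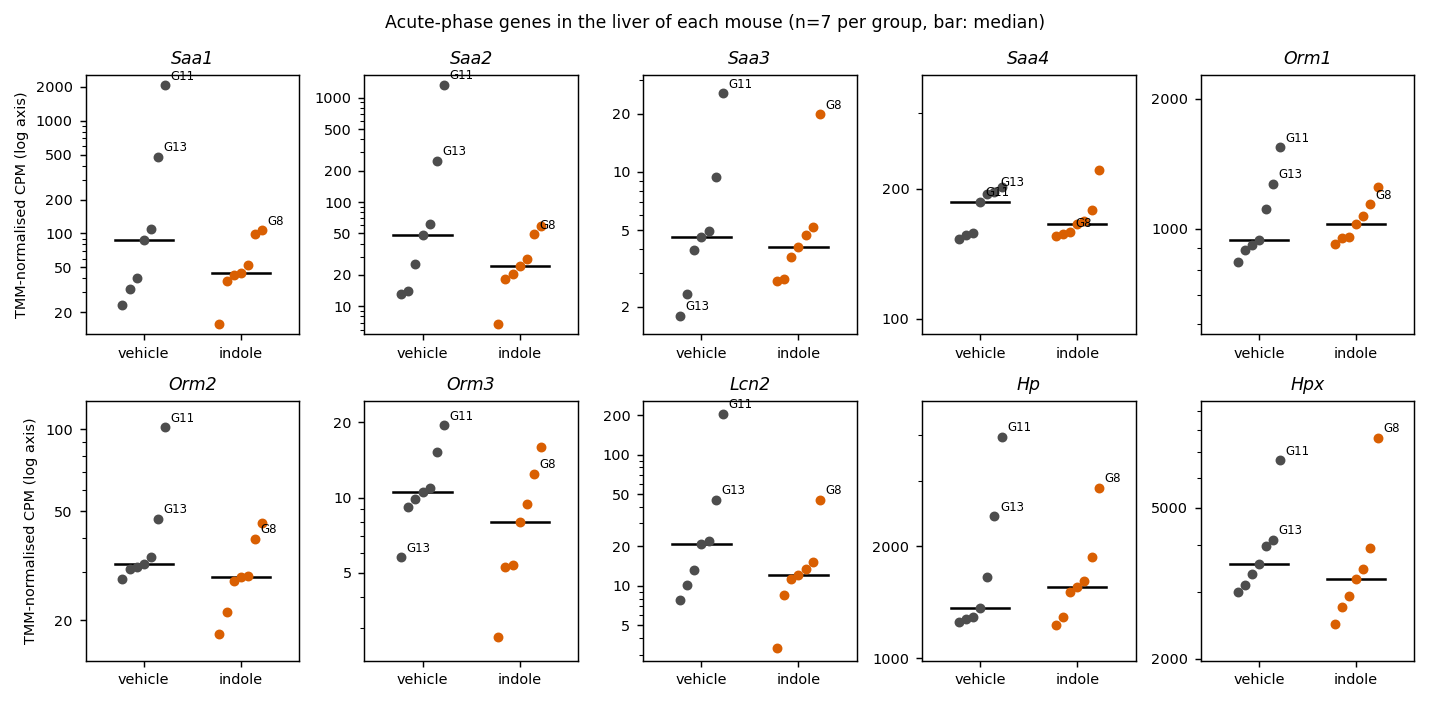
TMM-normalised CPM of the 10 genes on log axes that differ between panels, with 1 point per mouse (*n*=7 per group), bars at the group medians, and mice G8, G11 and G13 named. *Saa1* and *Saa2* reach 2050 and 1334 CPM in G11, whereas *Saa4* stays between 153 and 221 CPM in all 14 mice.

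To compare genes with each other, levels were divided by transcript length and are given in CPM per kb. The vehicle medians ran from *Hpx* (2373 CPM per kb) through *Orm1* (1213), *Hp* (1017), *Saa1* (143), *Saa4* (89.0), *Saa2* (79.6), *Orm2* (41.4), *Lcn2* (22.8) and *Orm3* (13.6) to *Saa3* (8.30 CPM per kb). Of the neighbours in this order, *Hpx* and *Orm1* alone had ranges over the vehicle mice that did not overlap, and those of *Hp* and *Saa1* overlapped through G11. In G11 the order was another one: *Saa1* reached 3367 CPM per kb, above *Hp* (2938) and *Orm1* (1994) and below *Hpx* (4450 CPM per kb) only, and *Saa2* reached 2202 CPM per kb. The length was that of a chosen transcript of each gene. The deposited values list longer gene lengths for *Saa1* (2478 against 609 bases), *Saa2* (2518 against 606), *Saa3* (2606 against 555), *Lcn2* (2623 against 915) and *Hp* (1606 against 1345). The order, including the place of *Saa1* in G11, depends on which length is used.

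How far each gene moved between mice was measured by the SD of its log2 CPM over the 14 mice, which had a median of 0.24 over all 12653 genes tested. *Saa2* (SD 1.93) and *Saa1* (SD 1.82) held ranks 10 and 15 among all genes, *Lcn2* (1.41) held rank 31 and *Saa3* (1.08) rank 88. *Orm3* (0.74), *Orm2* (0.59), *Hp* (0.51) and *Hpx* (0.46) had a larger SD than 95.9%, 91.2%, 86.2% and 82.2% of the genes. *Orm1* (0.24) exceeded 51.3% of the genes and *Saa4* (0.17) exceeded 27.9%. These shares are over all genes, whatever their level. Among genes of similar level only, *Saa4* exceeded 59.9%, *Orm1* 80.3%, *Hpx* 93.9% and *Hp* 97.1%. *Orm2* and *Orm3* each exceeded 98.8% of such genes, *Saa3* 99.5%, *Lcn2* 99.8%, and *Saa1* and *Saa2* 99.9% each. *Saa4* therefore had a narrow range but was not unusually stable for its level. The highest level was 198-fold the lowest for *Saa2*, 129-fold for *Saa1*, 61.0-fold for *Lcn2*, 14.2-fold for *Saa3* and 1.45-fold for *Saa4*.

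Without G11 and G13, a choice made after seeing the data, *Saa1* (SD 0.89) and *Saa2* (SD 0.98) still exceeded 98.1% and 98.8% of the genes. *Lcn2* (0.91) and *Saa3* (0.83) exceeded 98.3% and 97.4%. *Orm1* (0.17), by contrast, exceeded 25.7%. These shares are again over all genes and not only those of similar level. The spread of *Saa1* around the group median was larger with vehicle than with indole, with a mean absolute deviation of 1.68 against 0.63 on the log2 scale, but relabelling the mice gave such a difference often (exact permutation test, two-sided *p*=0.157, adjusted *p*=0.9998). For no member did this test give an adjusted *p* below 0.05. At an unadjusted *p* below 0.05 it called 584 of all genes tested and none of the 10.

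**Figure D2:**
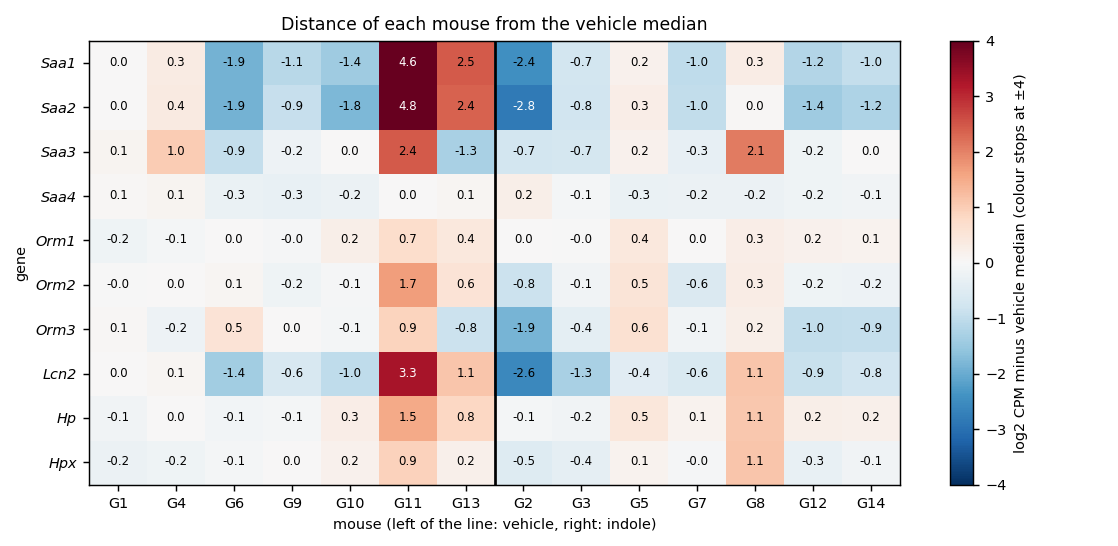
Difference in log2 CPM between each mouse (columns) and the vehicle median of each gene (rows), with red above and blue below that median and the colour stopping at ±4. G11 is red for every gene except *Saa4*, G13 is red for *Saa1*, *Saa2* and *Lcn2* but blue for *Saa3* and *Orm3*, and G8 is red for *Saa3*, *Lcn2*, *Hp* and *Hpx*.

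The comparison of indole with vehicle asks whether the treatment altered these genes. All 10 had a negative log2 fold change (indole minus vehicle, edgeR) with the 14 mice, beside 6164 of all 12653 genes. None of the 10 passed the test after adjustment over all genes. The 10 values share the same mice, and those of *Saa3*, *Orm1*, *Hp* and *Hpx* were positive without vehicle mouse G11. By group medians, *Orm1* and *Hp* were higher with indole (1.09-fold and 1.14-fold the vehicle median), and the other members were lower. At an unadjusted *p* below 0.05, *Saa1* and *Saa2* were lower with indole, 2 of the 10 members, whereas 2.28% of all genes tested were called in that direction and 3.81% in either. At an adjusted *p* below 0.05 edgeR called 0 of the 12653 genes (0%), with 482 at an unadjusted *p* below 0.05 and a smallest adjusted *p* of 0.998. DESeq2 on the same genes called 1 gene at that level, *Cyp2c29*, which is not among the acute-phase genes and is named because it was the only one, and limma voom called 0.

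*Saa1* had a log2 fold change of -2.82±1.05 (SE; edgeR, unadjusted *p*=0.0194, adjusted *p*=0.998) and *Saa2* one of -3.09±1.11 (unadjusted *p*=0.0164, adjusted *p*=0.998). The ratios of the group medians were nearer to 1, at 0.512 and 0.5001. On the mean of log2 CPM, which weighs each mouse equally, the differences were -1.25 and -1.41 (exact permutation test over all relabellings of the mice, two-sided *p*=0.237 and *p*=0.195). DESeq2 on the same genes gave -2.81±0.89 for *Saa1* (unadjusted *p*=0.00159, adjusted *p*=0.592) and -3.08±0.93 for *Saa2* (unadjusted *p*=0.000915, adjusted *p*=0.503). limma voom with sample weights gave -1.23±0.82 for *Saa1* (unadjusted *p*=0.148) and -1.42±0.89 for *Saa2* (unadjusted *p*=0.127). The sum of both genes gave -2.92±1.07 in edgeR (unadjusted *p*=0.0182, adjusted *p*=0.998).

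These values depended on vehicle mouse G11. Without G11 the edgeR log2 fold changes were -1.17±0.73 for *Saa1* (unadjusted *p*=0.136) and -1.23±0.74 for *Saa2* (unadjusted *p*=0.125). Without G11 and G13 they were -0.04±0.52 and -0.16±0.56. Without indole mouse G8 they were -3.04±1.16 and -3.26±1.23. In bulk tissue, fewer cells of a type and less RNA per cell cannot be told apart.

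The pattern of *Lcn2* was similar, at a smaller size. Its log2 fold change was -1.58±0.81 (edgeR, unadjusted *p*=0.0740, adjusted *p*=0.998), and DESeq2 on the same genes gave -1.56±0.74 (unadjusted *p*=0.0354, adjusted *p*=0.999). Without G8 the edgeR value was -2.13±0.83, without G11 it was -0.37±0.57, and without G11 and G13 it was 0.06±0.55, on the other side of 0.

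For *Saa3* the value turned with single mice on either side. It was -0.31±0.66 with the 14 mice (edgeR, unadjusted *p*=0.650), 0.43±0.55 without vehicle mouse G11 and -0.97±0.59 without indole mouse G8. *Saa4* differed least between the groups together with *Orm1*, with log2 fold changes of -0.05±0.09 (unadjusted *p*=0.603) and -0.04±0.12 (unadjusted *p*=0.749). *Orm1* was 0.07 without G11 and 0.01 without G13.

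Among the other orosomucoid genes, *Orm2* had a log2 fold change of -0.54±0.32 (edgeR, unadjusted *p*=0.114) and *Orm3* one of -0.46±0.36 (unadjusted *p*=0.223). Without G11 and G13, *Orm2* was at -0.07±0.19, and *Orm3* kept -0.40. For each of them 3 indole mice were below every vehicle mouse, although the groups overlapped. *Hp* (-0.14±0.29, unadjusted *p*=0.629) and *Hpx* (-0.07±0.26, unadjusted *p*=0.781) had positive values without G11, of 0.15 and 0.10, and negative ones without G8, of -0.32 and -0.34.

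**Figure D3:**
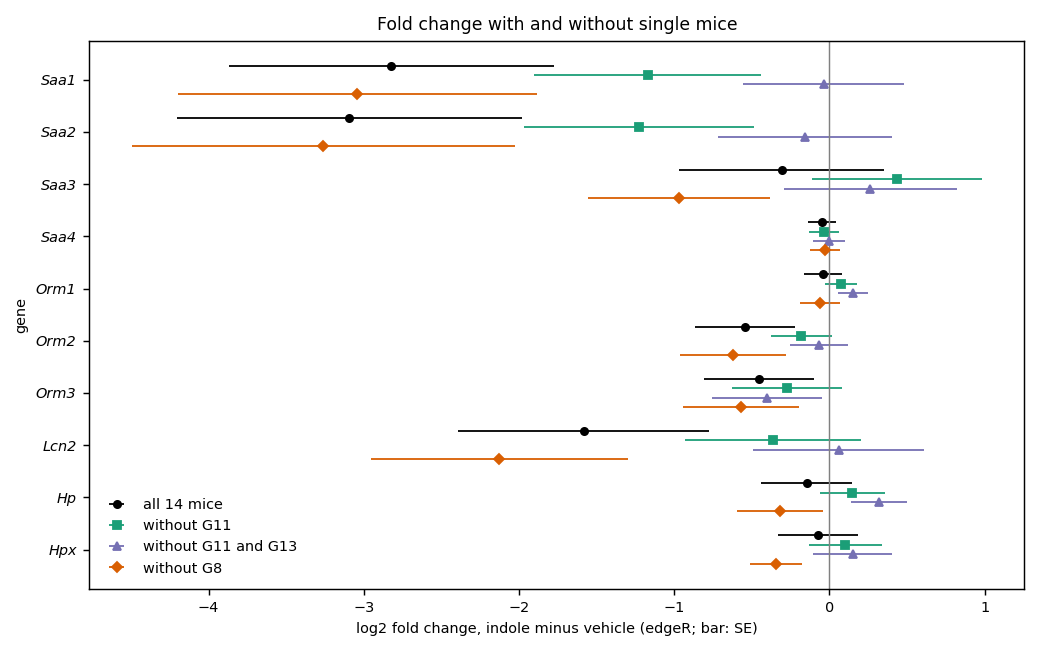
edgeR log2 fold change of each gene, indole minus vehicle, with bars of 1 SE, for all 14 mice and without the mice named in the key. *Saa1* is at -2.82 with all mice, -1.17 without G11 and -0.04 without G11 and G13, and *Saa4* stays next to 0 in each.

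Whether the genes moved together was asked over the 14 mice, with Pearson's *r* and Spearman's ρ of log2 CPM. Of the 45 pairs of members, 39 had a positive *r*, with a median of 0.66 over all pairs. An unadjusted permutation *p* below 0.05 with a positive coefficient was found for 30 of the 45 pairs by *r* and for 17 by ρ, whereas 4.7% and 4.73% of the 126475 pairs of a member with any gene tested reached it by *r* and by ρ. After adjustment over those 126475 pairs, 0 pairs were below 0.05 by either coefficient (0% of all). With 100000 permutations the smallest *p* is 1e-05, and the smallest adjusted *p* of any pair was 0.0632 by *r* and 0.0790 by ρ. With so few pairs at that smallest *p*, even a pair at 1e-05 had an adjusted *p* above 0.05. For pairs at the smallest *p*, the count of 0 was therefore limited by the number of permutations. Pairs above it, such as *Saa1* with *Orm2* (permutation *p*=6e-05 by *r*), were not held by that limit. With deviations from the group means, 5 pairs of members had an adjusted *p* below 0.05. The points share 14 livers and the normalisation.

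*Saa1* and *Saa2* moved as 1 pair. Their *r* was 0.996 and ρ 0.98 (permutation *p*=1e-05 for both, the smallest possible, adjusted *p*=0.0632 and 0.0790). Without G11 and G13, the mice farthest from the median of *Saa1*, *r* was 0.98. Within the vehicle group *r* was 0.997 and within the indole group 0.99. A doubling of *Saa1* went with a log2 increase of 1.05±0.03 in *Saa2* (least squares slope±SE), and *Saa2* took between 29.7% and 39.4% of the reads on both genes, the highest share being that of G11.

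*Lcn2* came next. With *Saa1* it had *r*=0.95 and ρ=0.91 over the 14 mice (permutation *p*=1e-05 and 2e-05, adjusted *p*=0.0632 and 0.0790), and *r*=0.88 without G11 and G13. Within the groups *r* was 0.99 with vehicle and 0.88 with indole. The slope of *Lcn2* on *Saa1* was 0.74±0.07, and 0.90±0.16 without G11 and G13.

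*Orm2* followed *Saa1* at a shallower slope of 0.29±0.04. Its *r* with *Saa1* was 0.90 and ρ 0.71 (permutation *p*=6e-05 and 0.00556, adjusted *p*=0.0903 and 0.293), and without G11 and G13 *r* was 0.68. For *Orm1* with *Saa1*, *r* was 0.73 with G11 and G13 and 0.14 without them (ρ 0.32 and -0.08). G11 and G13 had the highest *Saa1*, so leaving them out narrows its range, and the fall was not tested. *Orm3* had *r*=0.43 with *Saa1* over the 14 mice, with 0.11 over the 7 vehicle mice and 0.94 over the 7 indole mice, and the difference between the groups was not tested.

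*Hp*, the haemoglobin carrier, was closest to *Orm1* and *Hpx*. *Orm1* and *Hp* had *r*=0.91 and ρ=0.89 (permutation *p*=3e-05 and 7e-05, adjusted *p*=0.0744 and 0.125), and without G11 and G13 *r* was 0.77. *Hp* and *Hpx* had *r*=0.89 and ρ=0.80 (permutation *p*=0.00014 and 0.00109), with *r* of 0.95 within vehicle and 0.97 within indole, and 0.71 without G11 and G8, the mice farthest from the median of *Hp*. *Orm1* and *Hpx* had *r*=0.71, below that of *Hp* with *Lcn2* (0.86), *Orm2* (0.82) or *Saa1* (0.82). Without G11 and G13, *r* of *Hp* with *Saa1* was 0.44, and the slope of *Hp* on *Saa1* was 0.23±0.05.

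*Saa3* was nearer to *Hp* and *Hpx* than to its neighbours on chromosome 7 in the indole group, with *r* of 0.98 and 0.98 against 0.70 with *Saa1* and 0.61 with *Saa2*. G8 was the highest mouse of that group for *Saa3*, *Hp* and *Hpx*. Without G11 and G8 its *r* was -0.21 with *Hp* and -0.02 with *Hpx*. Over the 14 mice *Saa3* and *Saa1* had *r*=0.55 (permutation *p*=0.0407, adjusted *p*=0.514), and without G11 and G13, in the last of which *Saa3* was lowest, 0.75.

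*Saa4* stood outside. None of its 9 pairs reached a positive coefficient with an unadjusted permutation *p* below 0.05, and its *r* ran from -0.50 with *Orm3* to 0.24 with *Saa1*. The 36 pairs without *Saa4* all had a positive *r*, from 0.30 to 0.996, and all 36 were still positive without G11 and G13, from 0.07 to 0.98. When the 2 mice farthest from the median of the first gene of each pair were left out instead, 6 of the 36 turned negative: *Saa3* with *Orm1* (-0.26), *Hp* (-0.21), *Hpx* (-0.02) and *Orm2* (-0.006) without G11 and G8, and *Orm3* with *Lcn2* (-0.06) and *Hp* (-0.06) without G2 and G11. Within the indole group, *Saa4* and *Saa1* had *r*=-0.83 (exact permutation *p*=0.0236, not adjusted, *n*=7), and within the vehicle group *r*=0.64 (exact permutation *p*=0.120). By rank the indole value was weaker, with ρ=-0.50, and mouse G2 had both the highest *Saa4* and the lowest *Saa1* of that group. The difference between the groups was not tested.

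**Figure D4:**
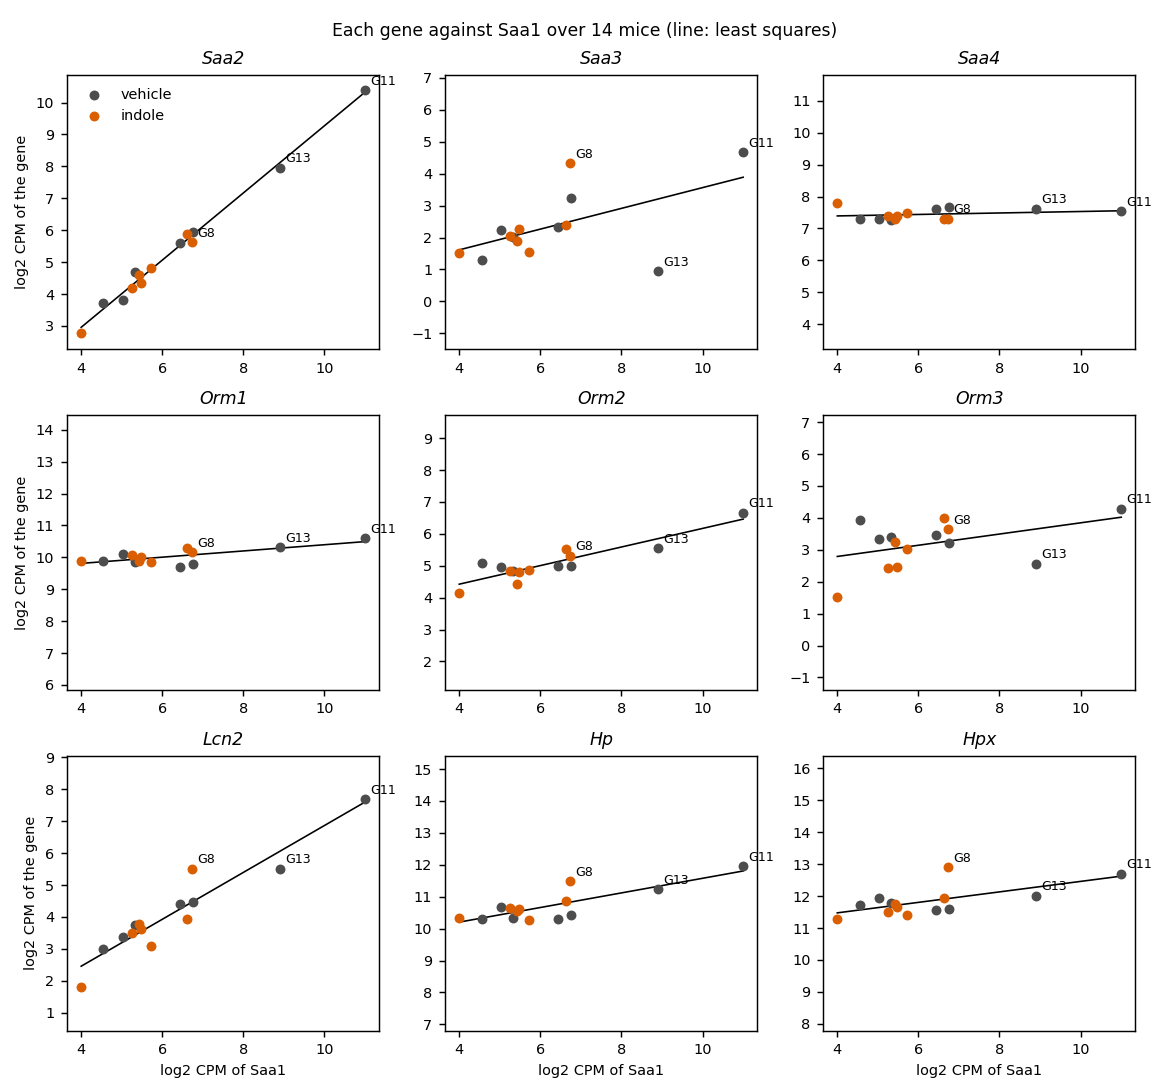
log2 CPM of each of the other 9 genes against log2 CPM of *Saa1*, with 1 point per mouse, the same height of axis in every panel and a least squares line over the 14 mice. The slope is 1.05 for *Saa2*, 0.74 for *Lcn2*, 0.29 for *Orm2* and 0.02 for *Saa4*, and in the *Saa3* panel G13 lies far below the line.

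**Figure D5:**
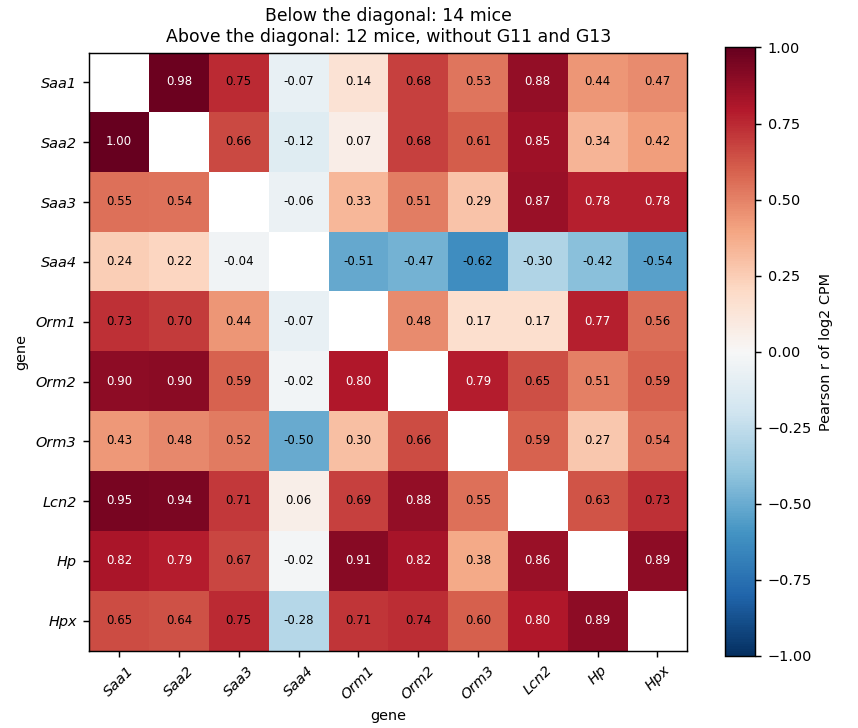
Pearson's *r* of log2 CPM for each pair of genes, over 14 mice below the diagonal and over 12 mice, without G11 and G13, above it. Over 14 mice *Saa4* has *r* of 0.24 with *Saa1* and 0.22 with *Saa2*, and the rest of its row and column is near 0 or blue. *Orm1* with *Saa1* fades from 0.73 to 0.14 without G11 and G13.

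The genes with the patterns most like those of the members, by Spearman's ρ over the 14 mice, were partly members themselves. For *Saa1* they were *Saa2* (0.98), *Lcn2* (0.91) and *Jak3* (0.87), a kinase of cytokine receptors, and for *Saa2* they were *Saa1*, *Lcn2* (0.91) and *Jak3* (0.89). For *Lcn2* they were *Saa1*, *Saa2* and *Arhgef16* (0.89). *Orm1* was most like *Cfi* (0.90), which encodes complement factor I, *Hp* (0.89) and *Apcs* (0.88), the gene of serum amyloid P. *Hp* was most like *Cfi* (0.94), *Serping1* (0.93), the C1 inhibitor, and *Orm1*.

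The remaining members had no other member among their 3 nearest genes. These were *B3galt6* (0.85), *Rgs19* (0.82) and *Coro1c* (0.81) for *Saa3*, and *Sfmbt1* (0.90), *Ppig* (0.89) and *Tbc1d16* (0.89) for *Saa4*. For *Orm2* they were *Igfbp6* (0.81), *Phlda3* (0.81) and *Hspb8* (0.80), and for *Orm3* *Dram2* (0.93), *Crot* (0.92) and *Crip1* (0.89). *Hpx* was most like *Qsox1* (0.93), *Tmem176a* (0.93) and *Arf1* (0.92). The ρ of *Saa1* exceeded 0.7 with 0.545% of the 12652 other genes tested. For the members of this paragraph that share was 0.292% (*Saa3*), 3.47% (*Saa4*), 0.285% (*Orm2*), 1.45% (*Orm3*) and 1.94% (*Hpx*). Some of the nearest genes had low mean levels over the 14 mice: *Igfbp6* 1.51, *B3galt6* 1.47, *Rgs19* 0.887 and *Phlda3* 0.527 CPM.

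The other genes of the response were taken from lists written with earlier results of these data known. Of 29 other positive acute-phase genes tested, 22 had a lower and 7 a higher mean with indole, with a median log2 fold change of -0.16, beside a median of 0.00 over all genes, of which 6164 had a lower and 6489 a higher mean. The 22 became 18 without G11 and G13. Those with an unadjusted *p* below 0.05 numbered 2 of the 29, both lower, beside 2.28% of all genes called lower. They were *Il1r1*, an interleukin-1 receptor (-0.34±0.14, edgeR, unadjusted *p*=0.0263, adjusted *p*=0.998), and *Pigr*, which carries IgA into bile (-0.17±0.07, edgeR, unadjusted *p*=0.0255, adjusted *p*=0.998). *C3*, the most abundant of them, lay between 9198 and 11783 CPM with vehicle and between 7415 and 10957 CPM with indole (log2 fold change -0.15±0.10). The median ρ with *Saa1* over this list was 0.30, and with *Hp* it was 0.56. Over the other genes tested, the median ρ was -0.002 with *Saa1* and -0.01 with *Hp*.

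Of 11 negative acute-phase genes tested, 6 had a lower and 5 a higher mean, with a median log2 fold change of -0.00, beside 6164 lower and 6489 higher of all 12653 genes. *Ttr*, which encodes transthyretin, was the only one with an unadjusted *p* below 0.05, beside 194 of all 12653 genes called higher (0.24±0.08, edgeR, unadjusted *p*=0.0110, adjusted *p*=0.998), at a median of 5042 CPM with vehicle and 5586 CPM with indole. *Alb*, the most abundant, had medians of 64377 and 66604 CPM. The median ρ over these negative genes was -0.04 with *Saa1* and 0.41 with *Hp*, so *Hp* also had a positive median with this list.

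Of 16 genes of the signalling upstream, 13 had a lower mean with indole, beside 6164 of all 12653 genes. Of these 13, 3 had an unadjusted *p* below 0.05 in edgeR (2.28% of all genes were called lower), none after adjustment. The median log2 fold change of the 16 was -0.08. *Socs3*, a target and inhibitor of STAT3 signalling, had lowest, median and highest levels of 1.56, 3.84 and 11.5 CPM with vehicle and 0.917, 1.61 and 3.91 CPM with indole (log2 fold change -1.25±0.41, edgeR, unadjusted *p*=0.00837, adjusted *p*=0.998), and -0.70 without G11 and G13. *Stat3* was at -0.32±0.14 (edgeR, unadjusted *p*=0.0359, adjusted *p*=0.998) and *Il6ra*, the interleukin-6 receptor, at -0.24±0.11 (unadjusted *p*=0.0491, adjusted *p*=0.998). Without G11 (100.2 CPM of *Stat3*) and G13 (123 CPM), *Stat3* was at -0.14, and *Il6ra* was at -0.29. *Cebpa* was the most abundant, with medians of 415 and 376 CPM. *Il6* itself was near 0, with 2 reads over all mice, and *Il1b*, *Tnf* and *Osmr* were also below the filter. Unlike *Saa1*, *Socs3* was higher in G13 (11.5 CPM) than in G11 (5.32 CPM).

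Of 7 genes of haem and iron handling beside *Hp*, *Hpx* and *Lcn2*, 6 had a higher mean with indole, beside 6489 of all 12653 genes, and none had an unadjusted *p* below 0.05. *Ftl1*, ferritin light chain and the most abundant, had medians of 3364 CPM with vehicle and 3687 CPM with indole. *Hmox1*, haem oxygenase 1, was at 44.1 CPM in G8 and at a median of 17.2 CPM in the indole group (log2 fold change 0.30±0.26), and is named after its values were seen.

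Markers of the cells that a liver lobe can hold were read beside these values. The 7 hepatocyte markers, led by *Alb*, summed to between 71469 and 105435 CPM. The 12 markers of Kupffer cells and macrophages summed to 548 CPM in G8 and 298 CPM in G11, the mice with the highest *Saa3*, *Hp* and *Hpx*, and to between 125 and 249 CPM in the other 12 mice, with no marker at 0 in all mice. The 11 neutrophil markers summed to between 0.439 and 2.27 CPM, highest in G11 and next in G8 (2.09 CPM), with *Ly6g* and *Camp* at 0 reads in all 14 mice. None of these 11 passed the filter on reads. The 6 adipocyte markers summed to between 4.31 and 10.8 CPM, most of it from *Fabp4* (median 6.88 CPM). Over all 14 mice *Cidec* had 123 reads, *Plin1* 2, *Adipoq* and *Cfd* 1 each, and *Lep* 0. The 6 erythroid markers summed to between 204 and 384 CPM with vehicle and between 263 and 1094 CPM with indole. The part of these cells in the levels of *Saa3*, *Lcn2*, *Hp* and *Hpx* was not tested.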

How the data were processed

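Per the labels and the study's methods, polyadenylated RNA of the right liver lobe was made into strand-specific libraries, and the authors' alignment used HISAT2 and the GRCm38 genome (Ensembl version 102). The deposited values are raw counts of uniquely mapped reads per gene, without normalisation. The counting tool and its strand setting are not given in the sources used here. All 14 columns were used, each a separate mouse by its label.

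The members and lists were chosen with earlier results of these data known. edgeR 4.0.16 in R 4.3.3 (TMM, filterByExpr, robust quasi-likelihood test) was run on 12653 genes with Benjamini–Hochberg adjustment over all of them, and was tested on simulated data. Log2 CPM used a prior count of 2. Exact permutation tests used all relabellings of the mice, and correlations used 100000 permutations, adjusted over 126475 pairs. Named genes were the members, list genes that had the highest level or an unadjusted *p* below 0.05, and the 3 genes most like each member. *Hmox1*, *Cyp2c29*, the cell markers with few reads and the cytokine and receptor genes below the filter were named outside this rule, after their values were seen. Transcripts came from GENCODE M21. The alternatives were DESeq2 1.42.0, limma 3.58.1, other scalings, filters and prior counts, a fit that was not robust, summed copies and leaving out mice. Depth, between 15197498 and 21060376 reads, left the low genes with the least precision, such as *Saa3* with 35 to 461 reads.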

Additional observations from a re-analysis of the deposited data

Results flagged for a closer look

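The highest mouse of a group stood apart from the other 6 by more than Dixon's 95% critical value for 7 samples, as a share of the range of log2 CPM, in 5 of the 20 combinations of gene and group. The share of all genes tested that this rule flags was not computed. The 20 combinations share the same livers, so the count is a description only. In indole mouse G8 the gap was 0.683 of the range for *Saa3* and 0.592 for *Hpx*. In vehicle mouse G11 it was 0.605 for *Orm2* and 0.603 for *Hpx*. In indole mouse G2 it was 0.612 for *Saa4*, which was highest in that mouse (221 CPM) while *Saa1*, *Saa2*, *Orm2*, *Orm3*, *Lcn2* and *Hpx* were lowest there. *Saa1* and *Saa2* in G11 did not pass, since G13 also lay above the rest.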

How the results depend on the processing

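The sign of the fold changes of *Saa1*, *Saa2*, *Orm2* and *Orm3* was negative under every alternative run, and no member had an adjusted *p* below 0.05 under any. With 1 mouse left out at a time the log2 fold change ran from -3.04 to -1.17 for *Saa1*, from -3.35 to -1.23 for *Saa2*, from -2.13 to -0.37 for *Lcn2*, from -0.97 to 0.43 for *Saa3*, from -0.089 to 0.072 for *Orm1*, from -0.32 to 0.15 for *Hp* and from -0.34 to 0.10 for *Hpx*, whose sign also turned without G2 (0.0098). The difference in mean log2 CPM of the summed *Orm* genes ran from -0.088 to 0.066. Without G11 and G13 together, chosen after seeing the data, *Saa3* was 0.26, *Orm1* 0.15, *Lcn2* 0.059, *Hp* 0.32 and *Hpx* 0.15. Without G8, G11 and G13, also chosen after seeing the data, *Saa4* was 0.015, *Orm1* 0.13 and *Hp* 0.14. For these reversals the cause was not tested.

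DESeq2 on the same genes called 1 gene at an adjusted *p* below 0.05, against 0 in edgeR. Without a filter on low counts 1336 genes had an unadjusted *p* below 0.05, against 482. That run tested every gene with any read, a larger set than the 12653, so the counts are not shares of the same genes. The 30 pairs of members with a positive correlation and an unadjusted *p* below 0.05 became 17 with Spearman's ρ, 17 without G11 and G13, and between 17 (without G11) and 33 with 1 mouse left out. With deviations from the group means, 5 pairs of members had an adjusted *p* below 0.05, against 0. Haem and iron genes with a lower mean in indole numbered 1 of 7, between 1 and 3 with 1 mouse left out, and 0 without G11 and G13. No paired analysis was possible because the groups share no replicate numbers.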
